A study of Mus musculus with 18 samples.

Results

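Integrins are cell-surface receptors built from 1 alpha and 1 beta subunit that tie cells to matrix proteins or to other cells. Laminins are trimers of 1 alpha, 1 beta and 1 gamma chain that form, with collagen IV and nidogen, the basement membrane under epithelium and around smooth muscle, vessels and nerves. In the gut, epithelial cells sit on laminins that hold the Lama3 and Lamb3 chains or the Lama5 chain, and grip them through Itga6 paired with Itgb4 or Itgb1. The subunits described here were taken from the expression table by gene symbol alone, as every symbol made of Itga with a subunit number or letter, Itgb with 1 digit, or Lama, Lamb or Lamc with 1 digit. This rule took 37 of 27131 rows, 26 integrin subunits and 11 laminin chains.

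Colon RNA of C57BL/6 mice that had received no treatment was compared between 9 libraries of genotype Hif2a +/+ (WT) and 9 libraries with a changed Hif2a allele (HIF2), said to overexpress HIF2 in the colon. The submitters write the allele as LFL in the sample labels and as LSL in the design text. The promoter or Cre that acts on the allele, the age of the mice and whether each library is a separate mouse could not be taken from the labels. Values are FPKM, fragments scaled by transcript length and by library size, so levels can be set beside each other between genes. Each gene with a mean of at least 1 FPKM over the 18 libraries was tested with limma on log2(FPKM + 1), and a gene is called higher or lower in HIF2 at a Benjamini-Hochberg adjusted p under 0.05 over all 13976 genes tested. A log2 difference below is the HIF2 mean minus the WT mean on that scale, given with its standard error.

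The libraries of the HIF2 group were not alike, and several differences below follow particular libraries. Slc11a2, an iron importer known as a HIF2 target, lay at 16.5 FPKM in HIF2 2 and 18.2 in HIF2 4, inside the WT range of 12.8 to 19.1, while the other HIF2 libraries held 229 to 2101. The HIF hydroxylase Egln3 was also inside its WT range in HIF2 2 and 4, at 21.8 and 16.7 against 11.4 to 22.2 FPKM, and the metalloreductase Steap4 held 9.95 and 5.10 there against 2.00 to 9.67 in WT and 103 to 451.5 in the other HIF2 libraries. The genotype label of both libraries was kept, and it could not be checked further. Tissue was fresh or frozen, per the labels, and neither this nor a batch is given per library. Epas1, the gene of HIF2 alpha, had a mean of 18.8 ± 3.09 FPKM over WT and of 22.7 ± 6.36 over HIF2 libraries (SD, n = 9), a limma log2 difference of 0.24 with an adjusted p of 0.246. The summed FPKM of 20 smooth muscle markers was 1745 to 3994 in HIF2 0 to 5 and 96.3 to 226 in HIF2 6 to 8, against 50.9 to 240.5 in WT apart from WT 3 at 1348. The fibroblast sum over 12 markers was 812 to 941 in HIF2 0 to 5, 118 to 254.5 in HIF2 6 to 8 and 34.3 to 244 in WT. HIF2 0 also stood apart in neutrophil markers, whose sum was 841 there and at most 9.15 in any other library. Epithelial markers were high in every library, with sums of 7522 to 11930 FPKM. Ddx3y, a Y-linked gene, was under 0.5 FPKM in WT 5 to 8 and in HIF2 3, 6, 7 and 8. In bulk tissue, fewer cells of a type and less RNA per cell cannot be told apart.

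Of the 37 subunits, 29 reached the mean of 1 FPKM. Of these, 17 were higher in HIF2, none was lower and 12 did not pass the threshold. In the lower direction limma gave none at an unadjusted p under 0.05 either, the smallest being 0.0608 for Itga6. Over all genes tested, 11.0% were higher and 11.1% were lower in HIF2. The median log2 difference was 0.79 over the 29 subunits and -0.02 over all genes tested. Itga8, Itga9, Itgam, Itgax, Itgb3 and Itgb7 had a WT mean below 1 FPKM and entered the test through their HIF2 libraries, so the count over tested subunits leans towards higher calls. With no filter on the mean, all 37 had a test, 20 were higher and none was lower, beside 10.6% of all genes higher under that rule; Itgal, Lama1 and Lamc3 were added. With a stricter mean of 5 FPKM, 18 subunits were tested and 9 were higher, beside 6.89% of all genes.

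**Figure D1:**
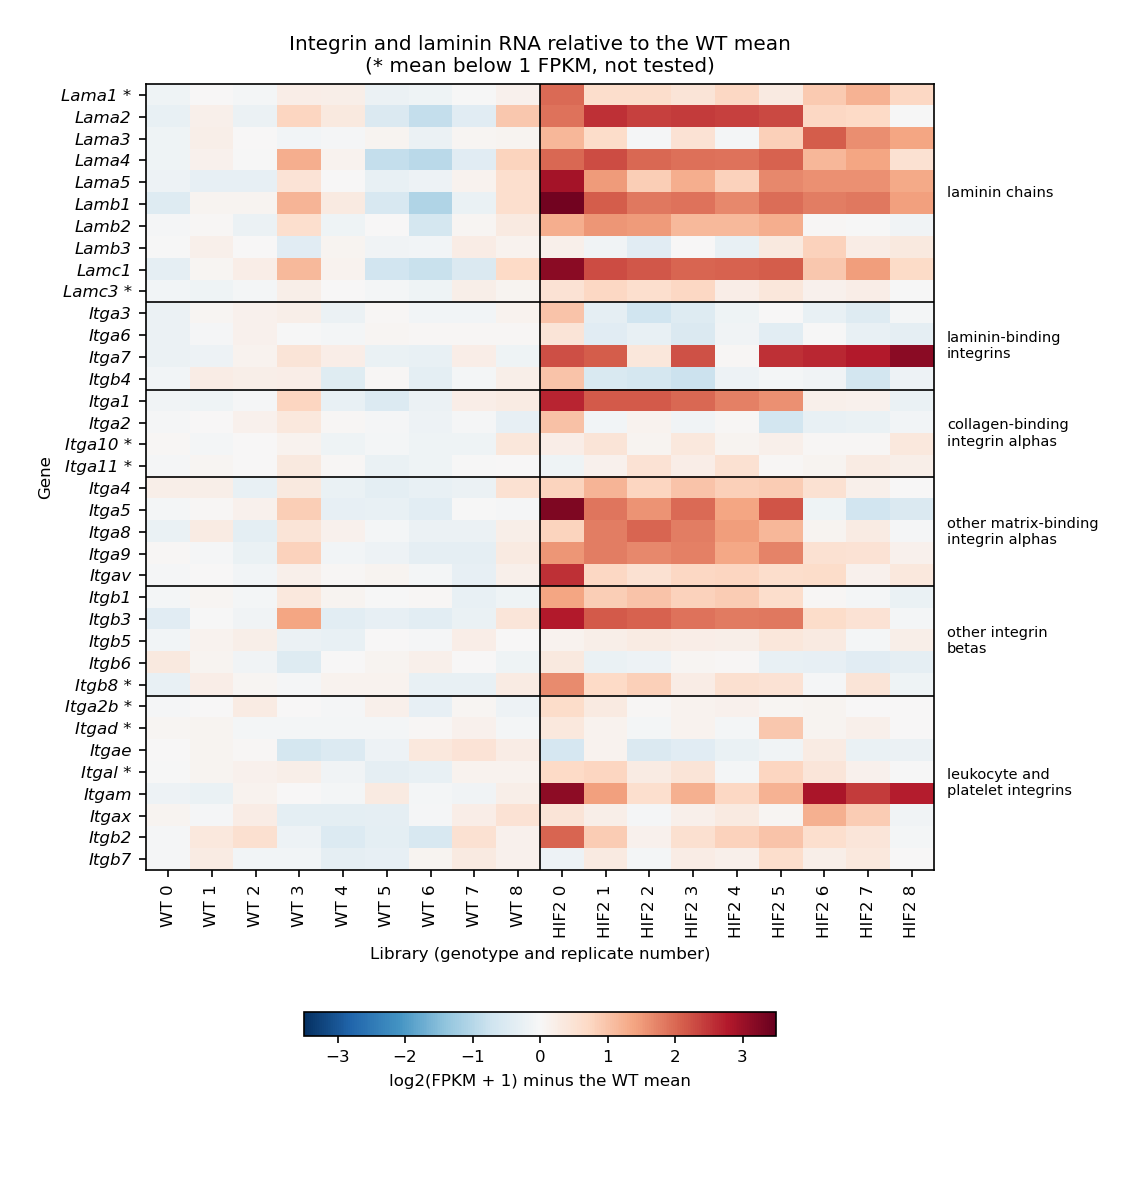
Each row is 1 of 36 subunits and each column 1 library, with colour giving log2(FPKM + 1) minus the mean of the 9 WT libraries. The map shows Lama2, Itga1, Itga5, Itga8 and Itgb3 high mainly in HIF2 0 to 5, Itga7 and Lama3 near WT in HIF2 2 and 4, and Lamb1, Lama5 and Itgam above WT in all 9 HIF2 libraries.

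Itgam, Lamb1 and Lama5 were the 3 tested subunits in which every HIF2 library lay above every WT library, a separation found for 0.758% of all genes tested. Itgam encodes the alpha subunit that pairs with Itgb2 on neutrophils, monocytes and macrophages. Lamb1 encodes the beta chain of the widely expressed laminins, and Lama5 the main alpha chain of mature epithelial and vascular basement membranes. The sequence just upstream of each gene's annotated start is shown because the groups of these 3 genes separated fully. The bases come from RefSeq on GRCm38.p6, 5′ to 3′ on the strand of the gene, at chr7:128062390-128062639 on the plus strand for Itgam, chr12:31265043-31265233 on the plus strand for Lamb1 and chr2:180225860-180226109 on the minus strand for Lama5. Capitals mark GAGGAAG, a purine-rich motif of the kind bound by myeloid ETS factors.
Itgam: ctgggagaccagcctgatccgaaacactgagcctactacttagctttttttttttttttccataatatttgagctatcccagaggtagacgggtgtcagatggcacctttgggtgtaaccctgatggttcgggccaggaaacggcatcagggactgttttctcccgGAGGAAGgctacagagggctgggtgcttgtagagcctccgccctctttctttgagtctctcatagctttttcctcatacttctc
Lamb1: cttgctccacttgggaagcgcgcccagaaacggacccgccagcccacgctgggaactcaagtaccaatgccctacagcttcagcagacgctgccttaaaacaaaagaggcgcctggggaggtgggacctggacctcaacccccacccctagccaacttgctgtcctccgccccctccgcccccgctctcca
Lama5: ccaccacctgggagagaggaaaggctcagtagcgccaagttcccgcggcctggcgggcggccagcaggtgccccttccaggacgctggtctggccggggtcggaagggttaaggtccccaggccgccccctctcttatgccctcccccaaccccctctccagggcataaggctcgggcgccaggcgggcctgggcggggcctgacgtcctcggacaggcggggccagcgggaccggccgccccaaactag
A RefSeq window of 250 bases before and 50 bases after the start was found for 23 of the 37 subunits, and motifs were searched on both strands in it. The core hypoxia response motif ACGTG was in the window of 1 of the 23, Itga9, against 21.8% of 27025 genes. GAGGAAG was in the windows of 8 of the 23, Itgam among them, against 15.4% of genes. The CArG box, the serum response factor motif, was in the windows of Itgb6 and Lama2, against 1.81% of genes. TGAGTCA, the AP-1 motif, was in 2 windows against 5.95% of genes, and GGAATG, the TEAD motif, in 3 against 16.6%. Lamb3 is counted for GAGGAAG and GGAATG, and Itga9 also for TGAGTCA, although the RefSeq starts lie 94295 and 94544 bases inside the GENCODE gene of Lamb3 and 105002 bases inside that of Itga9. Lama2 has its RefSeq start 2816 bases inside its gene, and 1 of the 2 starts of Itgb6 lies 48950 bases inside. These matches describe the letters of the windows and were not tested against the RNA levels.

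All 4 tested laminin alpha chains, Lama2, Lama3, Lama4 and Lama5, were higher in HIF2, but not in the same libraries. Lama5 ran from 1.71 to 3.99 FPKM in WT with a median of 1.93. In HIF2 it ran from 4.81 to 24.0 with a median of 8.32. The groups did not overlap, the highest value was that of HIF2 0, and the log2 difference was 1.50 ± 0.22 with a limma adjusted p of 0.000167.

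Lama3, the alpha chain that joins Lamb3 in the laminin of hemidesmosomes, ran from 12.2 to 16.3 FPKM in WT with a median of 14.3. In HIF2 it ran from 13.4 to 65.5 with a median of 25.9. HIF2 2 and 4 lay inside the WT range at 13.7 and 13.4, the other 7 HIF2 libraries lay above it, and HIF2 6 to 8 were the highest at 38.3 to 65.5. Lama3 had a log2 difference of 0.90 ± 0.24 with a limma adjusted p of 0.00964. The libraries in which Lama3 lay inside the WT range were those in which Slc11a2 did.

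Lama2, the alpha chain of muscle and nerve basement membranes, ran from 0.126 to 2.81 FPKM in WT with a median of 0.728. In HIF2 it ran from 0.986 to 10.8 with a median of 9.00. HIF2 0 to 5 held 6.40 to 10.8, above every WT library, and HIF2 6 to 8 held 0.986 to 2.27, inside the WT range. For Lama2 the log2 difference was 1.71 ± 0.36 with a limma adjusted p of 0.00223. Lama4, the alpha chain of endothelial, fat and muscle basement membranes, ran from 0.716 to 7.05 FPKM in WT with a median of 2.28, and from 3.79 to 15.2 in HIF2 with a median of 11.7. HIF2 0 to 5 and HIF2 7 lay above all WT libraries, HIF2 6 and 8 did not, and the highest WT library was WT 3, the WT library with the highest smooth muscle sum. Lama4 had a log2 difference of 1.70 ± 0.28 with a limma adjusted p of 0.000445.

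Lamb1 ran from 1.61 to 11.4 FPKM in WT with a median of 4.76. In HIF2 it ran from 13.6 to 55.4 with a median of 18.7. No library of one group reached the other, HIF2 0 was the highest at 55.4, and HIF2 6 to 8 held 13.6 to 18.7 with smooth muscle sums inside the WT range. The log2 difference of Lamb1 was 1.99 ± 0.27 with a limma adjusted p of 9.14e-05. Lamc1, the gamma chain that joins Lamb1 or Lamb2, ran from 1.69 to 9.20 FPKM in WT with a median of 3.87 and from 6.35 to 40.2 in HIF2 with a median of 18.5. HIF2 0 alone reached 40.2, and HIF2 1 to 8 held at most 21.5. HIF2 0 to 5 lay above 18 FPKM and HIF2 6 to 8 at 6.35 to 11.7, where 2 of the 3 lay below WT 3. The log2 difference was 1.88 ± 0.31 with a limma adjusted p of 0.000379.

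Lamb2, a beta chain of muscle and vessel basement membranes, ran from 1.27 to 4.20 FPKM in WT with a median of 2.51 and from 2.22 to 9.24 in HIF2 with a median of 6.67. Every WT library lay below HIF2 0 to 5, and HIF2 6 to 8 lay within the WT range. The difference on the log2 scale was 0.86 ± 0.24 with a limma adjusted p of 0.0143. Lamb3, the beta chain that joins Lama3 and the laminin chain of highest level, did not pass the threshold. It averaged 55.5 ± 7.40 FPKM over the WT and 62.0 ± 16.4 over the HIF2 libraries (SD, n = 9), a log2 difference of 0.13 ± 0.13 with a limma adjusted p of 0.540. G0s2, which lies on the opposite strand within the GENCODE span of Lamb3, was higher in HIF2 with a log2 difference of 1.44 and a limma adjusted p of 0.0109. Its overlap with that span runs to chr1:193273217, before the RefSeq starts of Lamb3 at chr1:193301994 and chr1:193302243. The library kit does not mark strand, so reads in their overlap cannot be told apart.

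Lama1, the alpha chain of embryonic basement membranes, and Lamc3, a gamma chain found in nerve and vessel, stayed below the mean of 1 FPKM. Lama1 was 0.0318 to 0.407 FPKM in WT and 0.469 to 3.74 in HIF2, or at most 1.74 without HIF2 0, and every HIF2 library lay above every WT library. Lamc3 was 0 to 0.265 in WT and 0.0839 to 0.806 in HIF2, with 7 HIF2 libraries above the WT range.

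The composition of the laminin RNA is given here as shares of the summed FPKM of the alpha or beta chains, as a description. Lama3 made up 49.3% to 83.1% of the alpha chain FPKM in WT, 33.1% to 44.8% in HIF2 0 to 5 and 68.8% to 77.5% in HIF2 6 to 8. The share of Lama3 in HIF2 6 to 8 lay inside the WT range although its level was above it. Lamb1 made up 2.96% to 20.1% of the beta chain FPKM in WT, 20.7% to 44.2% in HIF2 0 to 5 and 15.2% to 21.5% in HIF2 6 to 8. The ratio of Lama3 to Lamb3 was 0.227 to 0.317 in WT, 0.548 to 0.694 in HIF2 6 to 8 and 0.329 and 0.291 in HIF2 2 and 4.

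**Figure D2:**
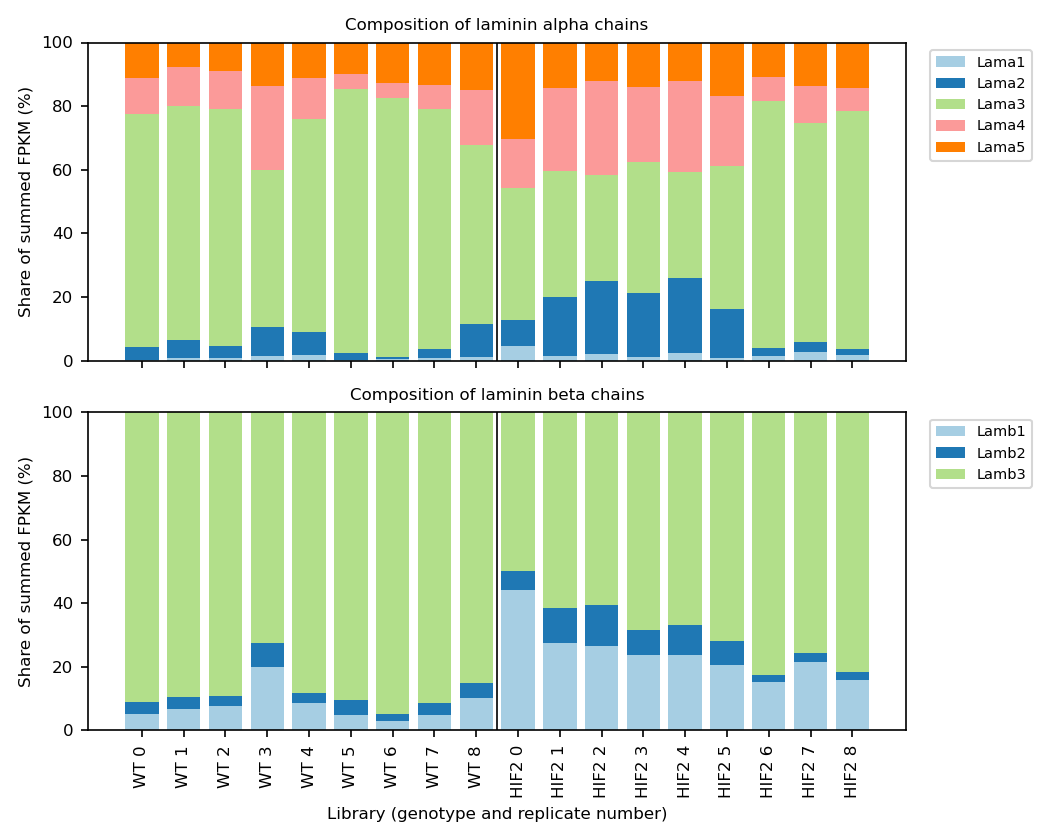
Stacked bars give the share in percent of each laminin chain in the summed FPKM of its type (alpha or beta) in each of the 18 libraries. Lama2 and Lama4 take a larger part of the alpha chains in HIF2 1 to 5 than in HIF2 6 to 8, and Lamb1 holds at least 15.2% of the beta chains in every HIF2 library.

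Of the 4 subunits of laminin-binding integrins, Itga7 was higher in HIF2 and Itga3, Itga6 and Itgb4 did not pass the threshold. Itga7, which pairs with Itgb1 and is best known as a laminin receptor of muscle, ran from 5.79 to 10.2 FPKM in WT with a median of 6.30. In HIF2 it ran from 7.33 to 71.3 with a median of 37.7. HIF2 2 and 4 held 9.71 and 7.33, inside the WT range, and the other 7 HIF2 libraries held 34.5 to 71.3. The highest were HIF2 6 to 8 at 49.4 to 71.3, where the smooth muscle sum was 96.3 to 226, inside the WT range. Itga7 had a log2 difference of 2.02 ± 0.34 with a limma adjusted p of 0.000510.

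Itga7 and Lama3 were both high in the libraries in which Slc11a2 was high, whether smooth muscle markers were high or low. The smooth muscle sums of HIF2 2 and 4 were 3477 and 3108. This match was seen in the values, and a link of Itga7 or Lama3 to Slc11a2 or to smooth muscle was not tested. The 3′ end of Itga7 overlaps the opposite-strand gene Mettl7b by 9 bases. Mettl7b held 208 to 328 FPKM in WT and 163 to 387.5 in HIF2, a log2 difference of 0.05 with an adjusted p of 0.855. Its difference did not pass the threshold. The library kit does not mark strand, so reads in these bases cannot be told apart.

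**Figure D3:**
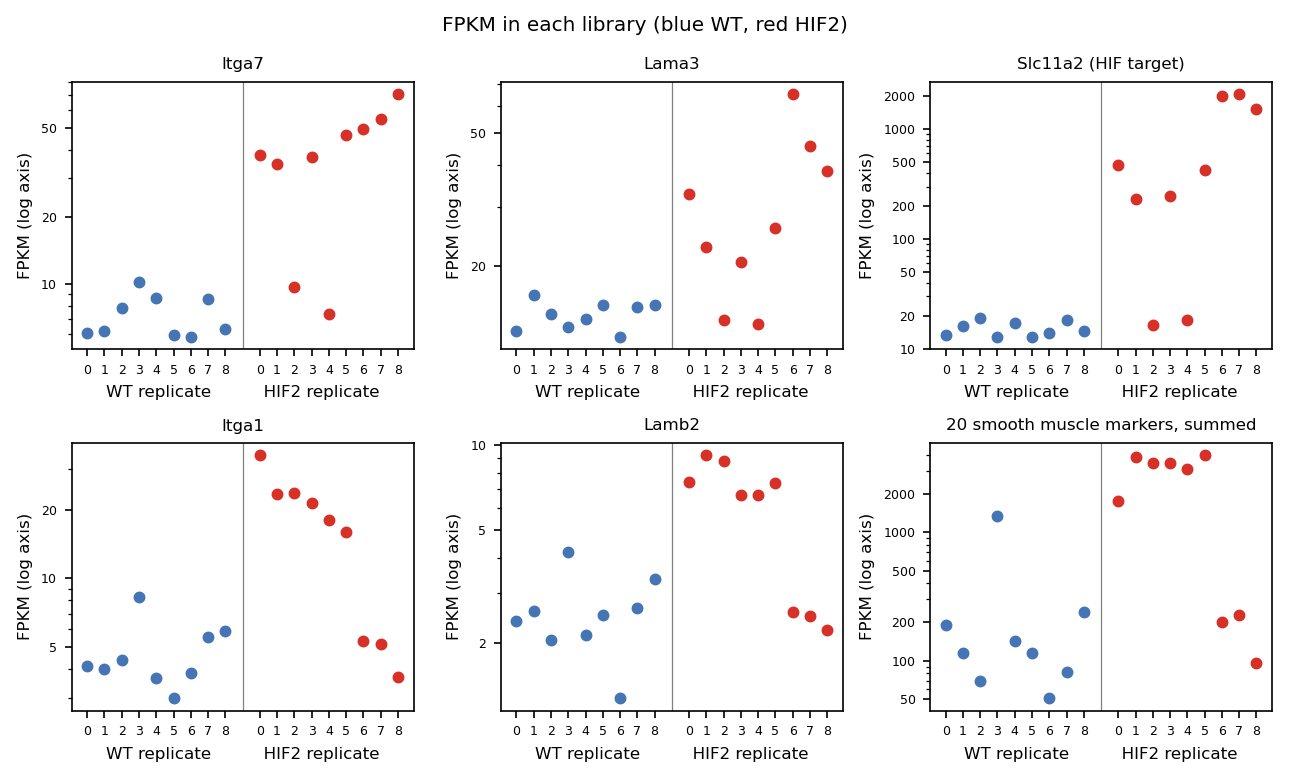
FPKM on log axes in the 9 WT (blue) and 9 HIF2 (red) libraries by replicate number, for Itga7, Lama3, Slc11a2, Itga1, Lamb2 and the sum of 20 smooth muscle markers. In the upper panels HIF2 2 and 4 sit with WT (Itga7 at 9.71 and 7.33), and in the lower panels HIF2 6 to 8 sit with WT (Itga1 at 3.70 to 5.32).

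Itga6, the main epithelial laminin receptor subunit and the subunit with the highest WT level, ran from 64.0 to 81.7 FPKM in WT with a median of 75.3 and from 52.0 to 101.8 in HIF2 with a median of 61.0. Itga6 in 6 HIF2 libraries lay below the WT range and in HIF2 0 above it. Itga6 had a log2 difference of -0.20 ± 0.10 with a limma adjusted p of 0.171. Itga3, the partner of Itgb1 in epithelial laminin adhesion, averaged 29.1 ± 3.16 FPKM over the WT and 27.5 ± 12.1 over the HIF2 libraries (SD, n = 9), a log2 difference of -0.16 with an adjusted p of 0.542. Itgb4, the hemidesmosome subunit that pairs with Itga6, averaged 23.2 ± 4.08 over the WT and 20.8 ± 10.2 over the HIF2 libraries, a log2 difference of -0.23 with an adjusted p of 0.417. HIF2 0 was the highest library for all 3, with Itga3 at 58.3 and Itgb4 at 46.7 FPKM. Without HIF2 0 all 3 were lower in HIF2, with log2 differences of -0.28 for Itga6, -0.30 for Itga3 and -0.39 for Itgb4 and limma adjusted p of 0.00582, 0.0309 and 0.0320. In that fit 12.0% of all genes were lower. The same 3 were also lower with library weights estimated by limma, where 16.1% of all genes were lower. In the 2 fits that bear on smooth muscle, given below, none of the 3 passed the threshold, with limma adjusted p of 0.127 to 0.592. Over all 18 libraries 5 of 12 epithelial markers were lower, with a median log2 difference of -0.22, beside 11.1% of all genes lower. A link of the 3 to these markers was not tested.

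The part of Itga7 in the summed FPKM of Itga3, Itga6 and Itga7 was 5.24% to 8.71% in WT, 7.29% to 35.2% in HIF2 0 to 5 and 33.8% to 45.0% in HIF2 6 to 8. The ratio of Itga7 to Itgb1 was 0.0823 to 0.150 in WT, 0.698 to 1.23 in HIF2 6 to 8, and 0.0709 and 0.0574 in HIF2 2 and 4. The ratio of Itga6 to Itgb4 overlapped between the groups, at 2.61 to 4.26 in WT and 2.18 to 4.29 in HIF2.

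Among the collagen-binding alpha subunits, Itga1 was higher and Itga2 did not pass the threshold. Itga1, which prefers collagen IV and is known from smooth muscle and other mesenchymal cells, ran from 2.97 to 8.31 FPKM in WT with a median of 4.12 and from 3.70 to 34.6 in HIF2 with a median of 17.99. HIF2 0 to 5 held 16.0 to 34.6, above every WT library, and HIF2 6 to 8 held 3.70 to 5.32, inside the WT range. Itga1 had a log2 difference of 1.38 ± 0.35 with a limma adjusted p of 0.00800. Itga2, an epithelial and platelet collagen receptor, averaged 20.1 ± 2.88 FPKM over the WT and 20.6 ± 8.38 over the HIF2 libraries (SD, n = 9), with HIF2 0 at 41.7 and HIF2 1 to 8 at 12.3 to 21.9. Its log2 difference was -0.03 with an adjusted p of 0.926. Itga10, a cartilage collagen receptor, was 0.179 to 0.710 FPKM in WT and 0.340 to 0.783 in HIF2, and Itga11, a fibroblast collagen receptor, was 0.0626 to 0.587 and 0.141 to 0.820. Both were too low to test under the filter and overlapped between the groups. Pelo lies inside the Itga1 gene on the same strand and had a log2 difference of -0.12 with an adjusted p of 0.564.

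Of the 5 alpha subunits that bind fibronectin, vitronectin or related ligands, Itga4, Itga8, Itga9 and Itgav were higher in HIF2. Itgav, which pairs with Itgb1, Itgb3, Itgb5, Itgb6 and Itgb8 and with some of them activates latent TGF-beta, ran from 10.9 to 15.3 FPKM in WT with a median of 13.4 and from 14.9 to 83.6 in HIF2 with a median of 21.4. HIF2 7 alone lay inside the WT range, and HIF2 0 lay far above the rest, which held 14.9 to 23.3. The log2 difference was 0.79 ± 0.22 with a limma adjusted p of 0.0153, and 0.57 without HIF2 0.

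Itga8, a nephronectin and fibronectin receptor of smooth muscle and other mesenchymal cells, ran from 0.0460 to 0.815 FPKM in WT with a median of 0.266 and from 0.302 to 4.46 in HIF2 with a median of 1.98. Itga9, a tenascin receptor of smooth muscle, lymphatic vessels and neutrophils, ran from 0.178 to 1.60 in WT with a median of 0.382 and from 0.636 to 4.14 in HIF2 with a median of 3.31. Both were above every WT library in HIF2 0 to 5 and within the WT range in HIF2 6 to 8. The log2 differences were 1.05 ± 0.27 for Itga8 and 1.23 ± 0.24 for Itga9, with limma adjusted p of 0.00962 and 0.00152. Itga4, the leukocyte receptor for Vcam1 and fibronectin, ran from 0.800 to 2.31 FPKM in WT with a median of 1.01 and from 1.30 to 4.27 in HIF2 with a median of 2.92. HIF2 0 to 6 lay above the WT range and HIF2 7 and 8 did not, with a log2 difference of 0.69 ± 0.17 and a limma adjusted p of 0.00619.

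Itga5, the classical fibronectin receptor subunit, was 1.94 to 5.95 FPKM in WT with a median of 2.73 and 1.41 to 35.8 in HIF2 with a median of 10.4. All of HIF2 0 to 5, at 8.92 to 35.8, lay above WT, while HIF2 7 and 8 lay below every WT library at 1.41 and 1.67. Over all 9 HIF2 libraries the log2 difference was 1.22 ± 0.44 with a limma adjusted p of 0.0530, and it passed the threshold when WT 3, HIF2 6, HIF2 7 or HIF2 8 was left out, with a lowest adjusted p of 0.0146.

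Of the beta subunits that partner these alphas, Itgb1 and Itgb3 were higher in HIF2. Itgb1, the common partner of most matrix-binding alphas, ran from 56.8 to 88.7 FPKM in WT with a median of 68.2 and from 58.1 to 179.8 in HIF2 with a median of 121.7. The range was 105.5 to 179.8 in HIF2 0 to 5, above every WT library, and HIF2 6 to 8 held 58.1 to 70.8, inside the WT range. Itgb1 had a log2 difference of 0.59 ± 0.18 with a limma adjusted p of 0.0253. Itgb3, the vitronectin and fibrinogen receptor subunit of platelets, vessels and smooth muscle, ran from 0.123 to 2.85 FPKM in WT with a median of 0.263 and from 0.431 to 9.29 in HIF2 with a median of 4.39. HIF2 0 to 5 lay above the WT range, with HIF2 0 the highest and HIF2 1 to 8 at most 5.53. The highest WT library was WT 3, and the next highest was at 0.996. Itgb3 had a log2 difference of 1.51 ± 0.34 with a limma adjusted p of 0.00413.

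The summed FPKM of 7 platelet and megakaryocyte markers was 2.63 to 4.65 in WT and 1.51 to 6.75 in HIF2, with at most 3.87 in HIF2 1 to 8. The 1 that was tested was lower in HIF2, by a log2 difference of -0.89, and Gp5 was under 0.5 FPKM in every library. Itga2b, the platelet partner of Itgb3, was 0 to 0.476 FPKM in WT and 0.218 to 0.883 in HIF2 and was not tested under the filter. Itgb5, a vitronectin receptor subunit, averaged 12.1 ± 1.57 FPKM over the WT and 14.2 ± 1.38 over the HIF2 libraries (SD, n = 9), a log2 difference of 0.21 ± 0.08 with a limma adjusted p of 0.0613. Itgb6, an epithelial TGF-beta-activating subunit, averaged 23.7 ± 3.68 over the WT and 21.6 ± 3.94 over the HIF2 libraries, a log2 difference of -0.13 with an adjusted p of 0.419. Itgb8, another TGF-beta-activating subunit, was 0 to 0.457 FPKM in WT and 0.0831 to 2.77 in HIF2, with 6 HIF2 libraries above the WT range.

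Of the leukocyte subunits, Itgam and Itgb2 were higher in HIF2. Itgam ran from 0.603 to 1.32 FPKM in WT with a median of 0.801 and from 1.81 to 15.3 in HIF2 with a median of 4.11. HIF2 0 held 15.3, HIF2 6 to 8 held 9.26 to 12.6 and HIF2 1 to 5 held 1.81 to 4.11, all above every WT library. HIF2 2 and 4 were the lowest 2 of the group. Itgam had a log2 difference of 1.82 ± 0.31 with a limma adjusted p of 0.000528. Itgb2, the beta subunit Itgam needs to reach the cell surface, ran from 0.337 to 1.93 FPKM in WT with a median of 0.915 and from 0.904 to 7.21 in HIF2 with a median of 1.99. The groups overlapped, HIF2 0 was the highest, and the log2 difference was 0.71 ± 0.24 with a limma adjusted p of 0.0378.

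The call of Itgb2 was lost in 9 of the 18 fits that left out 1 library, WT 0, 3, 4, 5 or 6 or HIF2 1, 3, 4 or 5, with adjusted p up to 0.0681. In HIF2 6 to 8 Itgam was well above its partner. The ratio of Itgam to Itgb2 was 5.50 to 12.7 there, against 0.384 to 2.38 in WT and 0.841 to 2.13 in HIF2 0 to 5. The macrophage markers were highest in HIF2 0 to 5 and Itgam, HIF2 0 apart, in HIF2 6 to 8. The neutrophil sum was 2.12 to 9.15 FPKM in HIF2 6 to 8 and 0.391 to 3.28 in WT. Mpo and Elane were under 0.5 FPKM in every library, also in HIF2 0, where the neutrophil sum was 841. Retnlg, Il1r2 and Mmp8 reached 54.8, 15.55 and 11.1 FPKM in HIF2 and at most 0, 0.260 and 0 in WT. Cxcr2 and Csf3r reached 3.25 and 2.295 in HIF2 and at most 1.36 and 0.449 in WT. S100a8 and S100a9, named after their values were seen, reached 421.3 and 332.8 FPKM in HIF2 0 and at most 1.59 and 0.890 in WT. The macrophage sum over 9 markers was 34.2 to 63.1 in HIF2 6 to 8, 69.7 to 120.7 in HIF2 0 to 5 and 8.16 to 50.8 in WT. Of these markers 8 of 9 were higher in HIF2, beside 11.0% of all genes. With the mean of the smooth muscle markers as a covariate 6 of 9 were higher, beside 7.26% of all genes. With HIF2 6 to 8 against the WT libraries other than WT 3, 5 of 8 were higher, beside 8.97%. The part of these cells in the Itgam difference was not tested.

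Itgax, the dendritic cell and macrophage subunit whose gene at chr7:128129547-128150657 lies next to Itgam at chr7:128062640-128118491 (GRCm38), was 0.453 to 1.59 FPKM in the WT and 0.692 to 3.33 in the HIF2 libraries, a log2 difference of 0.35 ± 0.18 with a limma adjusted p of 0.192. HIF2 6 and 7 were the 2 libraries above the WT range. Itgad, the next gene along, was 0 to 0.156 FPKM in WT and 0 to 1.01 in HIF2. Itgae, the subunit of intraepithelial lymphocytes that binds E-cadherin with Itgb7, averaged 1.22 ± 0.541 over the WT and 0.901 ± 0.389 over the HIF2 libraries (SD, n = 9), with an adjusted p of 0.417. Itgb7 averaged 0.979 ± 0.312 over the WT and 1.26 ± 0.382 over the HIF2 libraries, with an adjusted p of 0.327. Itgal, the lymphocyte partner of Itgb2, was 0.118 to 0.604 FPKM in WT and 0.331 to 1.35 in HIF2, with 6 HIF2 libraries above WT.

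Since smooth muscle markers moved with many subunits, the fit was repeated in 2 ways that bear on them. With the mean of the 20 smooth muscle markers as a covariate, 9 of 29 subunits were higher, beside 7.26% of all genes. With HIF2 6 to 8 set against the 8 WT libraries other than WT 3, 26 subunits were tested, 9 were higher and 1 was lower, beside 8.97% of all genes higher and 10.6% lower. The libraries of that comparison were picked by their smooth muscle markers, with results of these data known. Itga7, Itgam, Lama3, Lama4, Lama5, Lamb1 and Lamc1 were higher in both fits and over all 18 libraries. Both fits bear on smooth muscle only. Over all 18 libraries 10 of 10 tested fibroblast markers were higher, beside 11.0% of all genes. With the covariate 5 of 10 were higher, and with HIF2 6 to 8, 3 of 8. The summed FPKM of 6 mesothelial markers was 5.055 to 10.96 in HIF2 6 to 8 and 1.18 to 3.03 in WT. The part of these cells in the differences was not tested.

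In HIF2 6 to 8 the log2 differences were 2.91 ± 0.15 for Itga7, 2.69 ± 0.15 for Itgam and 1.70 ± 0.14 for Lama3, with limma adjusted p of 1.15e-07, 2.59e-07 and 6.52e-06. They were larger there than over all 18 libraries. Slc11a2 was also highest in HIF2 6 to 8, at 1525 to 2101 FPKM, against at most 469 in HIF2 0 to 5. Ddx3y was under 0.5 FPKM in all of HIF2 6 to 8, but in this fit's WT libraries only in WT 5 to 8. The part of either in these differences was not tested. Lamb1 and Lama5 had 1.84 ± 0.29 and 1.57 ± 0.18, close to their values over all libraries, and Lama4 and Lamc1 had 1.19 ± 0.33 and 1.17 ± 0.30. Lamb3 passed the threshold in both fits, with 0.41 ± 0.12 in HIF2 6 to 8 and 0.44 ± 0.13 with the covariate and limma adjusted p of 0.0299 and 0.0347. Itgb6 was lower in HIF2 6 to 8, by a log2 difference of -0.39 ± 0.10 with a limma adjusted p of 0.0175.

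Itga1, Itga4, Itgb1, Itgb2, Lama2 and Lamb2 were called over all libraries but in neither of these fits. Itga8 and Itgb3 were lost with the covariate and were under the mean of 1 FPKM with HIF2 6 to 8. A lost call did not always come with a small difference. With the covariate the log2 difference was 0.51 for Itgb2, 0.53 for Itgav and 0.52 for Lama2, and with HIF2 6 to 8 it was 0.30 for Itgb2 and 0.56 for Lama2. For Lamb2 it was 0.86 over all libraries, 0.05 with the covariate and 0.04 in HIF2 6 to 8, and for Itga1 it was 1.38, 0.28 and 0.12. Itgav was called in HIF2 6 to 8 and not with the covariate, and Itga9 was called with the covariate and not tested in HIF2 6 to 8. Because the smooth muscle markers and the genotype moved together, the covariate also takes up part of the genotype, and the 2 cannot be told apart in HIF2 0 to 5.

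**Figure D4:**
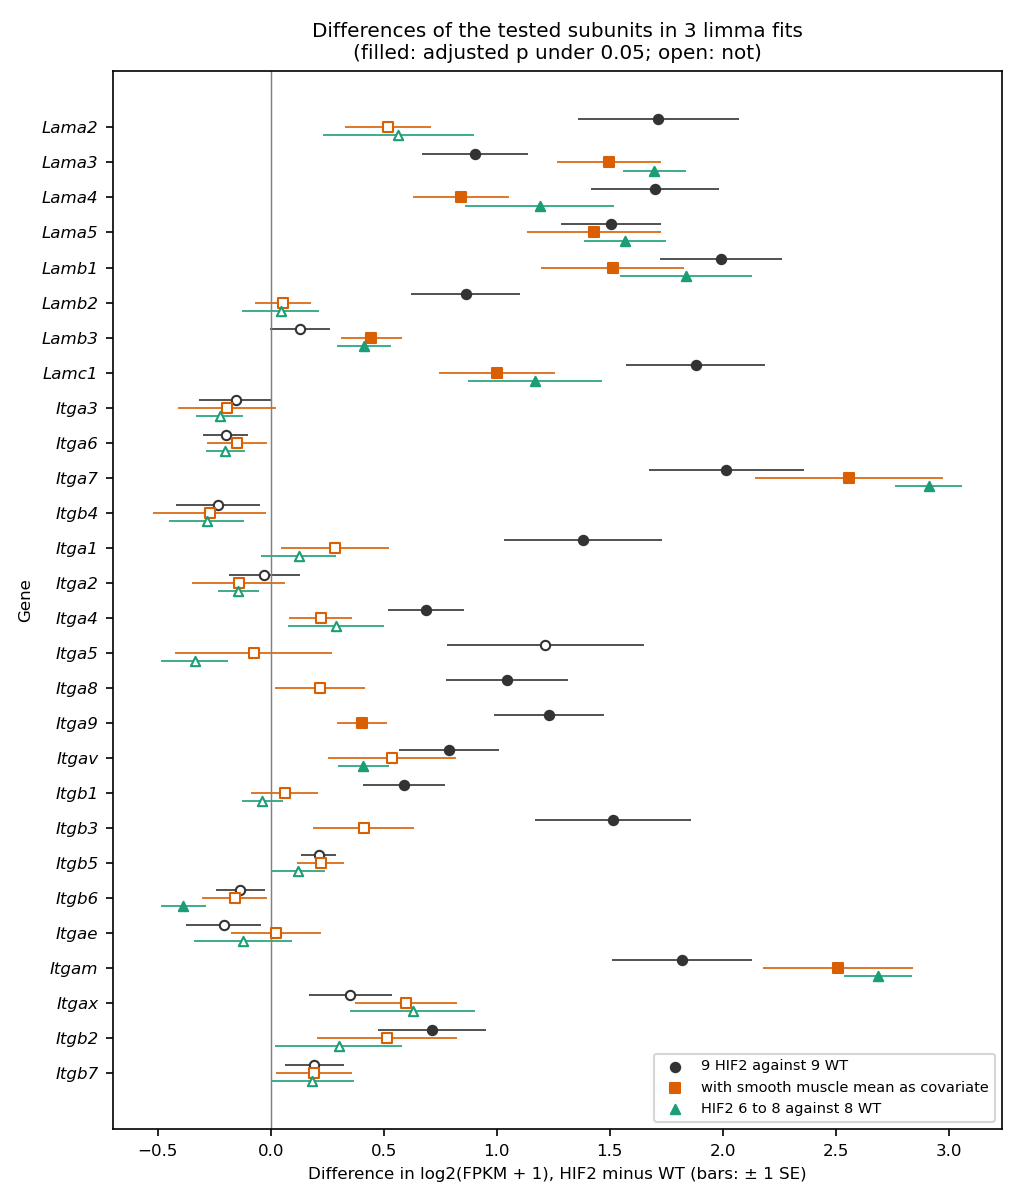
Points give the difference in log2(FPKM + 1), HIF2 minus WT, for 28 of the 29 tested subunits in 3 limma fits, with bars of 1 standard error and filled symbols at an adjusted p under 0.05. Itga7, Itgam and Lamb1 lie farthest right in HIF2 6 to 8 (2.91, 2.69 and 1.84), and Lamb2 and Itga1 lie at 0.04 and 0.12 there.

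With HIF2 0 to 5 against the 9 WT libraries, 28 subunits were tested and 19 were higher, beside 12.5% of all genes. These were the 17 called over all libraries, Itga5 with a log2 difference of 2.05 and Itgb5 with 0.24. Without HIF2 2 and 4, the libraries with Slc11a2 inside the WT range, 28 were tested and 15 were higher, beside 10.3% of all genes. Itgb1 was then at an adjusted p of 0.0839 and Itga8 was under the filter.

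The genes around these subunits were followed as 4 lists, with the 2 of smallest p named in each direction. Of 13 tested basement membrane genes outside the laminins, 10 were higher and 3 lower in HIF2, with a median log2 difference of 1.36, beside 11.0% of all genes higher and 11.1% lower. With the covariate 7 of 13 were higher and 2 lower, and with HIF2 6 to 8 the counts were the same. Over all genes, 7.26% were higher and 7.63% lower with the covariate, and 8.97% and 10.6% with HIF2 6 to 8. Nid1, the nidogen that links Lamc1 to collagen IV, averaged 3.90 ± 3.44 FPKM over the WT and 25.7 ± 20.8 over the HIF2 libraries (SD, n = 9), and Col4a5, a collagen IV chain, was 3.21 ± 1.55 and 10.9 ± 2.40. Their log2 differences were 2.42 and 1.56 with limma adjusted p of 0.000239 and 5.26e-05. In HIF2 6 to 8 Nid1 held 9.34 to 12.9 and Col4a5 7.40 to 13.9. Agrn, a heparan sulfate proteoglycan that binds laminin, and Ntn4, a laminin-related netrin, were lower, with log2 differences of -0.46 and -0.58 and limma adjusted p of 0.0109 and 0.0333.

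Of 10 tested hemidesmosome and other laminin receptor genes, 5 were higher and none lower, beside the same 11.0% and 11.1% of all genes. With the covariate 2 of 10 were higher and none lower, beside 7.26% and 7.63% of all genes. With HIF2 6 to 8, 2 of 8 were higher and 1 lower, beside 8.97% and 10.6% of all genes. Bcam, a receptor for Lama5, averaged 2.22 ± 0.837 FPKM over the WT and 6.29 ± 1.39 over the HIF2 libraries, a log2 difference of 1.19 with a limma adjusted p of 5.20e-05. Sgce, a sarcoglycan of the dystrophin complex, was 0.854 ± 0.819 and 4.01 ± 2.38, with 2.72 to 7.41 in HIF2 0 to 5 and 1.10 to 1.61 in HIF2 6 to 8. Of 20 tested genes of the complex inside the cell that anchors integrins to actin, 6 were higher and 2 lower, the lower count being near the 11.1% of all genes. With HIF2 0 to 5, 12 of 20 were higher and 2 lower, beside 12.5% of all genes higher and 1874 of 13999 lower. With HIF2 6 to 8 none was higher and 5 were lower, beside 8.97% and 10.6% of all genes. Fermt2, the kindlin of mesenchymal cells, had a log2 difference of 2.18 and Lims1, an adaptor of integrin-linked kinase, 0.41. Src and Bcar1, a kinase and a scaffold of integrin signalling, had -0.34 and -0.36. Fermt2 held 11.9 to 25.6 FPKM in HIF2 0 to 5 and 1.50 to 2.85 in HIF2 6 to 8, and with the covariate none of the 20 was higher and 1 was lower, beside 7.63% of all genes lower.

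Of 11 tested integrin ligand genes, 8 were higher and 1 lower, again beside 11.0% and 11.1% of all genes. With the covariate 5 of 11 were higher and none lower, beside 7.26% and 7.63% of all genes. With HIF2 6 to 8, 4 of 9 were higher and 1 lower, beside 8.97% and 10.6% of all genes. Fn1, fibronectin, averaged 7.46 ± 5.68 FPKM over the WT and 48.6 ± 26.4 over the HIF2 libraries (SD, n = 9), with 52.3 to 77.2 in HIF2 0 to 5 and 10.1 to 18.5 in HIF2 6 to 8. Fbn1, a fibrillin bound by Itgav integrins, had a log2 difference of 2.12 with a limma adjusted p of 0.000269. Cdh1, the E-cadherin bound by Itgae, was lower with -0.38 and an adjusted p of 0.0207.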

How the data were processed

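Polyadenylated RNA of mouse colon was sequenced after a TruSeq v2 preparation, a kit that does not mark strand, per the labels' protocols. The authors deposited 1 table of FPKM per gene for all 18 libraries. Per the submitters' processing notes, the build was mm10 and the tools included TopHat, TopHat2 2.0.9, Bowtie2 2.1.0.0, Cufflinks, Cuffdiff 2.1.1 and FastQC, with no role or order stated. Read depth and counts per library are unknown, so no counting interval is given; column sums of FPKM ran from 686539 to 937505. All 18 value columns matched a sample label, no columns were identical, and the highest correlation between libraries was 0.931.

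From these values limma 3.58.1 (R 4.3.3) was run on log2(FPKM + 1) with a trended prior, a pseudocount of 1, a mean of at least 1 FPKM and Benjamini-Hochberg adjustment over all genes at 0.05. A fold on this scale understates changes of low genes. The p-values measure the spread between libraries, which the labels do not tie to separate mice. Every subunit is named apart from 1 that is counted in the totals and not reported here, and from each list of other genes the 2 of smallest p in each direction. The members, lists, motifs and library splits were chosen with earlier results of these data known. Sums over marker lists, shares and ratios are of FPKM. Gene positions are from GENCODE M21 (GRCm38, 1-based) and promoters from RefSeq on GRCm38.p6. The script was tested on simulated data. In all, 13 alternatives and 18 fits without 1 library were run; 1 alternative, without HIF2 2 and 4, was added after the data were seen.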

Additional observations from a re-analysis of the deposited data

Results flagged for a closer look

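Within each group of 9 libraries, the highest or lowest library of a subunit was set against its nearest neighbour, relative to the range of the group on the log2(FPKM + 1) scale, and 13 of 72 groups held a library farther out than Dixon's 95% critical value. Chance alone gives such a library in about 1 in 20 groups, and groups that share a library are not independent. HIF2 0 was that library 9 times, as the highest of its group. It held 41.7 FPKM of Itga2, 0.883 of Itga2b, 58.3 of Itga3, 101.8 of Itga6 and 83.6 of Itgav. It also held 7.21 FPKM of Itgb2, 46.7 of Itgb4, 24.0 of Lama5 and 55.4 of Lamb1. WT 3 was the highest of its group 2 times, with 5.95 FPKM of Itga5 and 2.85 of Itgb3. The other 2 were WT 8 with 0.710 FPKM of Itga10 and HIF2 5 with 1.01 FPKM of Itgad.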

How the results depend on the processing

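Across the 13 alternatives, the 17 subunits called higher gave 209 values, of which 191 stayed past the threshold in the same direction, 17 stayed in direction only and 1 changed direction. Across the 18 fits without 1 library they gave 306 values, of which 297 stayed past the threshold and 9, all Itgb2, did not. The number of subunits higher was 9 with a mean of 5 FPKM, with the smooth muscle covariate and with HIF2 6 to 8, and 16 to 19 without 1 library. The number lower was 3 with array weights, 1 with HIF2 6 to 8 and 0 to 3 without 1 library. Over all genes, the number higher was 640 with a mean of 5 FPKM, 2407 with no filter, 1015 with the covariate and 1282 to 1661 without 1 library, and the number lower was 1336 to 1657 without 1 library. The 2 filters change the number of genes tested, and the cause of the other shifts was not tested. Directions turned for Itgb1 (-0.0378 with HIF2 6 to 8), Itga5 (-0.0764 with the covariate and -0.34 with HIF2 6 to 8), Itgae (0.0220 with the covariate) and Lamb3 (-0.0039 with array weights and -0.0381 with HIF2 0 to 5). For Itga2 the log2 difference was 0.0163 with quantile normalization, 0.0186 with median ratio scaling and 0.0524 with HIF2 0 to 5, and without 1 library it ran from -0.161 to 0.0489. The replicate numbers did not pair the libraries: deviations of same-numbered libraries correlated at -0.0333 to 0.112 and no library correlated best with its own number. With the replicate block 1355 genes and 17 subunits were higher and 1345 genes and no subunit lower, where Itga5 passed at 0.0499 and Itgb2 did not at 0.0803. Depth is unknown, so subunits listed near 0 FPKM cannot be told from undetected ones.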

Other observations

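Other cell type markers also differed between the groups, beside 11.0% of all genes higher and 11.1% lower. Of 11 tested endothelial markers all 11 were higher in HIF2, with sums of 44.0 to 131.8 FPKM in HIF2 0 to 5, 21.1 to 27.1 in HIF2 6 to 8 and 5.90 to 26.9 in WT. HIF2 0 alone held 131.8, and HIF2 1 to 8 held at most 65.0. With the smooth muscle covariate 3 of 11 were higher, and with HIF2 6 to 8, 2 of 6. Over all genes 8.97% were higher with HIF2 6 to 8. With the covariate 7.26% of all genes were higher and 7.63% lower, shares that also stand beside the covariate counts below. Of 10 listed enteric neuron and glia markers 3 were tested. All 3 were higher, and 2 of 3 with the covariate. Of 6 listed mesothelial markers 3 were tested and 2 were higher, and 1 of 3 with the covariate. The mesothelial markers Msln, Upk1b, Krt5 and Wt1 overlapped between the groups. Lrrn4 did not, at most 0.265 FPKM in WT and 0.294 to 1.74 in HIF2. Upk3b, the mesothelial marker with the widest separation, held at most 0.690 FPKM in WT and 3.03 to 8.53 in HIF2. Such markers entered the test through their HIF2 libraries, so the counts of low-level marker lists lean towards higher calls. Of 12 epithelial markers none was higher and 5 were lower, and with the covariate 1 was higher and 2 were lower. Of 4 tested T cell and NK cell markers 1 was lower, and none with the covariate, and of 2 tested B cell and plasma cell markers neither passed the threshold. None of 4 tested neutrophil markers passed it, with a median log2 difference of 0.99. The neutrophil sum was 841 FPKM in HIF2 0 and at most 9.15 in any other library. With HIF2 6 to 8 no neutrophil marker reached the filter.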
